A study of Mus musculus with 8 samples.

Results

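The genes described here are the disaccharidases and the alkaline phosphatase of the intestinal brush border, Sis, Lct, Mgam, Treh and Alpi, together with Krt20, the keratin of the mature villus epithelium. They were chosen by name, with earlier results of these data known, as were the gene lists set beside them below. The probe sets used are those whose single gene symbol is one of these 6, among 17097 genes represented on the array. Mgam, Treh, Alpi and Krt20 each had 1 such probe set (1456777_PM_at, 1449430_PM_a_at, 1431077_PM_at and 1426284_PM_at, in that order). Sis and Lct had none in the platform annotation used and were not analysed here, so of the carbohydrases the values below cover Mgam and Treh. Transcript levels came from the ileum of 4 male mice in which Slc51a is knocked out and 4 wild-type males, all on a C57BL/6 background, about 2 months old and fasted for 4 h. Slc51a encodes a subunit of the basolateral transporter by which bile acids leave the enterocyte toward the blood, and the comparison asked which ileal transcripts differ where it is missing. Each animal's ileal RNA was run on 1 Affymetrix 3' expression array. The knockout is labelled only by the gene that is inactivated, and the labels used here do not say in which cells, or by what allele. Knockout replicates 3 and 4 and wild type replicate 2 were lower than the other arrays in the spiked-in hybridization controls, and the members' values without them are given below.

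The brush border is the layer of microvilli on the surface of the absorptive enterocyte, and its membrane holds the enzymes that finish the digestion of carbohydrate. Maltase-glucoamylase (Mgam) and sucrase-isomaltase (Sis) are related enzymes that release glucose from starch fragments, and sucrase-isomaltase also splits sucrose into glucose and fructose. Lactase (Lct) splits milk sugar and trehalase (Treh) the fungal and insect sugar trehalose. Intestinal alkaline phosphatase (Alpi) removes phosphate groups from nucleotides and from bacterial lipopolysaccharide at the same surface. These enzymes appear as cells leave the crypt and mature on the villus, as does keratin 20, an intermediate filament protein of the cell body that is not part of the brush border membrane.

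The sequences upstream of the measured members are shown because 3 of the 4 were lower in the knockout and the fourth did not pass the test. Each is the 250 bases before the annotated start of the gene in RefSeq (mouse GRCm38.p6), written 5′ to 3′ on the strand of the gene. All 4 genes matched the table by symbol. Capitals mark matches, on either strand, to TTTAT (letters bound by CDX factors), GATAA (GATA factors) and CACCC (Kruppel-like factors), each of these being a family of transcription factors active in the intestinal epithelium.
Treh (chr9:44672983-44673232, plus strand): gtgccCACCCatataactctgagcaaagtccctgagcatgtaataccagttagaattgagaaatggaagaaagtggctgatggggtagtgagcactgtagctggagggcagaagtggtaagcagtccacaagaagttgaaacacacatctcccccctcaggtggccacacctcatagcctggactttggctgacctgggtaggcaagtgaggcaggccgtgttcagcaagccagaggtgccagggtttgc
Alpi (chr1:87101607-87101856, minus strand): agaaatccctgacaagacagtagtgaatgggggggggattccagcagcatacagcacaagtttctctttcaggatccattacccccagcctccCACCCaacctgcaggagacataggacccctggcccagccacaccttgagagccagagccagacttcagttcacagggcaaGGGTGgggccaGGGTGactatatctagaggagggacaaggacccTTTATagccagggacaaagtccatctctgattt
Mgam (chr6:40628581-40628830, plus strand): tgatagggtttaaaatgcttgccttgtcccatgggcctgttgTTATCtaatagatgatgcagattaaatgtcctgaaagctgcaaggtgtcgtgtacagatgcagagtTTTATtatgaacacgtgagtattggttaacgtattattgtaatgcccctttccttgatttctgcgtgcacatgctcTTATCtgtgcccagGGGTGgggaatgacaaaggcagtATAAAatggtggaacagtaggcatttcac
Krt20 (chr11:99438154-99438403, minus strand): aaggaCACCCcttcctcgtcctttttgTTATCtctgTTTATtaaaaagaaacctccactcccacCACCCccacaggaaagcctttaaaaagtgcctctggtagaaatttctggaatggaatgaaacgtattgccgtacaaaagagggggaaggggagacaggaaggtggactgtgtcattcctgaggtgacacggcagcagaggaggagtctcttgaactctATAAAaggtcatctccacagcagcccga
The CDX letters occurred 0 times upstream of Treh, 1 time upstream of Alpi and 2 times each upstream of Mgam and Krt20, and 37.3% of the 32851 promoter windows searched held them. In Alpi, Mgam and Krt20 the copy nearest the start, whose first base lay 33, 29 and 28 bases before it, overlapped a match to TATAAA, the letters of the TATA box. That match was on the strand of the gene in Mgam and Krt20 and on the opposite strand in Alpi. The GATA letters occurred 2 times in Mgam, 1 time in Krt20 and 0 times in the others, against 22.6% of all windows with at least 1. The CACCC letters occurred 3 times in Alpi, 1 time each in Treh and Mgam and 2 times in Krt20, and 52.0% of all windows held them. GTTAAT, part of the sequence bound by HNF1, was absent from all 4 windows and present in 6.4% of all. No motif searched was held by the 3 genes that fell and not by Krt20, and a match describes letters, not binding.

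Transcripts of the 3 measured brush border enzymes were lower in the knockout ileum, and Krt20 did not pass the test. Among the 4 that were measured, none rose, 3 fell and 1 did not pass, where 30.0% of all 17097 genes were called, 12.9% lower and 17.1% higher. The call is an adjusted p under 0.05 from limma after Benjamini-Hochberg adjustment across the whole table, and every difference below is knockout minus wild type on the log2 scale, where a difference of 1 is a doubling of signal. The median difference of the members was -0.41, beside 0.01 over all genes. The numbers are small and the members were not sampled from the genome, so the share describes these 4 genes.

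Treh, the trehalase gene, had log2 signals of 5.41, 5.03, 5.38 and 5.40 in the knockout arrays, against 5.88, 6.30, 6.03 and 5.97 in the wild-type arrays. The groups did not overlap, and the knockout array with the lowest signal, replicate 2, stood apart from the other knockout arrays. Treh fell by 0.74 (SE 0.10, 95% interval -0.97 to -0.52, limma adjusted p = 0.00028), to 0.597 of the wild-type signal. Its signal was not far above that of the middle probe set of the arrays (4.58), and a fall near the floor of the scale may be understated. Of all genes, 302 (1.77%) had a more negative difference than Treh.

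Mgam, the maltase-glucoamylase gene, had log2 signals of 11.26, 11.42, 11.48 and 11.24 in the knockout arrays, against 11.67, 11.84, 11.68 and 11.56 in the wild-type arrays. The groups did not overlap, though the highest knockout array and the lowest wild-type array were 0.08 apart, less than the range within either genotype (0.24 in the knockout and 0.28 in wild type). Mgam fell by 0.34 (SE 0.07, 95% interval -0.50 to -0.18, limma adjusted p = 0.0046), to 0.791 of the wild-type signal. Its probe set was brighter than 98.8% of genes.

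Alpi, the intestinal alkaline phosphatase gene, had log2 signals of 10.54, 10.47, 10.46 and 10.43 in the knockout arrays, against 10.76, 11.13, 11.04 and 10.87 in the wild-type arrays. The knockout arrays lay close together, with an SD of 0.05, and the wild-type arrays were more spread, with an SD of 0.17. The groups were separated by 0.21. Alpi fell by 0.47 (SE 0.08, 95% interval -0.64 to -0.30, limma adjusted p = 0.00076), to 0.721 of the wild-type signal.

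Krt20 had log2 signals of 12.47, 12.26, 12.28 and 12.26 in the knockout arrays, against 12.44, 12.44, 12.36 and 12.35 in the wild-type arrays. Knockout replicates 2, 3 and 4 lay below every wild-type array, and knockout replicate 1 lay above all of them. The difference was -0.08 (SE 0.06, 95% interval -0.21 to 0.05, limma adjusted p = 0.349), so a fall of up to 0.21 lies within the interval and one as large as that of Alpi does not. Without knockout replicate 1 the difference was -0.13 (adjusted p = 0.0749), and with cyclic loess normalisation of the deposited values it was -0.16 and passed (adjusted p = 0.0404). Its signal was brighter than that of 99.7% of genes, close to the top of the scale, where a difference may be understated. Groups did not overlap for 3 of the 4 members, all lower in the knockout, against 30.7% of all genes in either direction and 12.8% in this one.

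**Figure D1:**
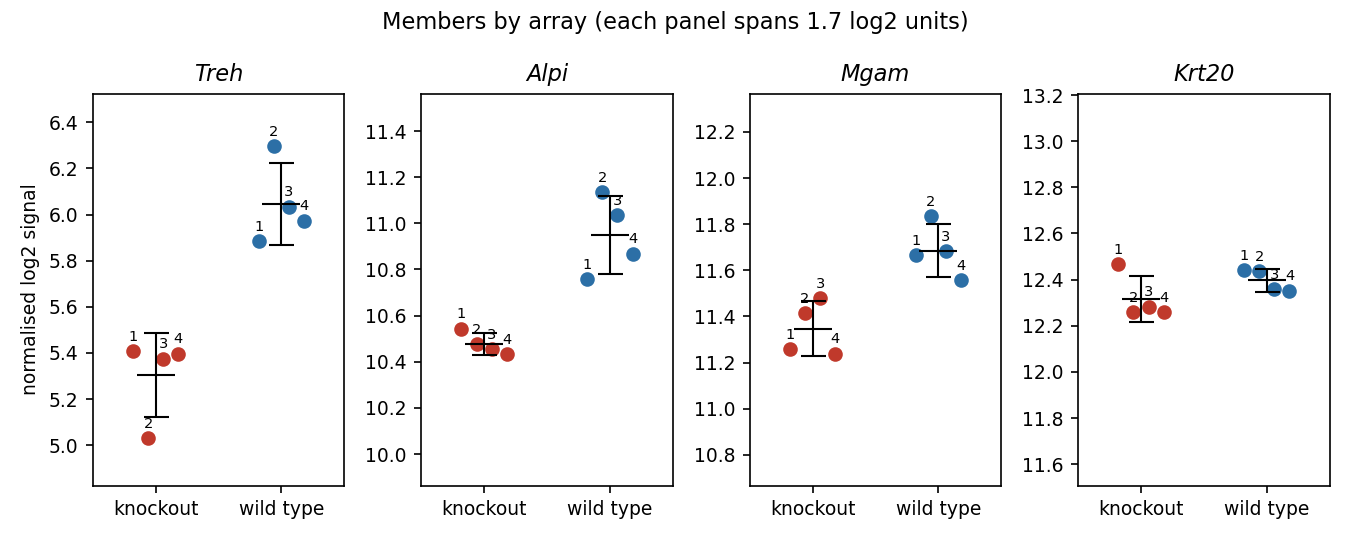
Normalised log2 signal (vertical axis) of Treh, Alpi, Mgam and Krt20 on each array, knockout in red and wild type in blue, numbered by replicate, with the mean and SD of each genotype as black bars (n = 4 each). All knockout points lie below all wild-type points for Treh, Alpi and Mgam, while for Krt20 knockout replicate 1 at 12.47 lies above every wild-type array.

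Among wild-type arrays, replicate 2 was the highest for each of the 3 enzymes, 0.25 above the wild-type mean for Treh, 0.19 for Alpi and 0.15 for Mgam. That array also had the lowest mean of the hybridization controls among wild-type arrays, 8.83 on the log2 scale. The other arrays that were low in these spiked-in controls were knockout replicates 3 and 4, at 8.74 and 8.86, and the remaining 5 arrays lay between 8.95 and 9.15. Without these 3 arrays, a set picked once the control values were known, Treh differed by -0.75 (adjusted p = 0.00383), Alpi by -0.38 (adjusted p = 0.0208), Mgam by -0.30 (adjusted p = 0.0266) and Krt20 by -0.02 (adjusted p = 0.895) in limma. A limma fit on all arrays with the control mean as a covariate was also added after seeing the data. There Treh differed by -0.85, Alpi by -0.52 and Mgam by -0.43, and all 3 passed. Krt20 differed by -0.07 and did not pass.

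The members differed in how far they moved, which was asked by taking the difference between 2 members on the same array and comparing it between genotypes. Of the 6 pairs, 5 differed. The enzymes fell relative to Krt20 on the same array, Treh by 0.67 (SE 0.12), Alpi by 0.39 (SE 0.09) and Mgam by 0.26 (SE 0.10), and Treh fell relative to Mgam by 0.41 (SE 0.14) and to Alpi by 0.27 (SE 0.10). Each of these 5 had a 2-sided exact permutation p of 0.0286, the smallest that 4 against 4 arrays allow, and an adjusted p of 0.0343 over the 6 pairs. Alpi minus Mgam differed by -0.14 (SE 0.09, exact permutation p = 0.171), which does not show that these 2 moved alike, and without knockout replicate 3 by -0.08. The 3 differences against Krt20 carry the limit given above for its bright probe set: if its own fall is understated, the enzymes fell by less relative to it. Mgam and Alpi were bright too, above 98.8% and 97.3% of genes, whereas Treh was above 52.45%. Whether the scale is compressed unequally at these levels was not tested, and Treh minus Mgam and Treh minus Alpi carry that limit.

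Because the samples are pieces of whole ileum, fewer cells of a type and less RNA per cell cannot be told apart. The members were therefore also set against genes of all epithelial cells on the same array (Epcam, Cdh1, Cldn7, Krt8, Krt18, Krt19, Esrp1 and Spint1), whose mean log2 signal was 11.48 to 11.53 in the knockout and 11.46 to 11.52 in wild type. Relative to that mean, Treh differed by -0.77, Alpi by -0.50 and Mgam by -0.36, each with non-overlapping groups and a 2-sided exact permutation p of 0.0286 (adjusted p = 0.0381 over the 4 members). Krt20 differed by -0.11 (exact permutation p = 0.114). The 8 epithelial genes did not move alike, as 3 rose, 3 fell and 2 did not pass, beside 17.1% of all genes higher and 12.9% lower. Esrp1, a splicing regulator, rose by 0.47 and the keratins Krt18 and Krt19 by 0.26 and 0.22, and the claudin Cldn7 fell by 0.25.

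The members were also set against the mean of a list of 14 genes drawn up for brush border structure. The list holds Mypn, named after its values were seen, at 3.81 in the knockout and 3.79 in wild type. It was dimmer than the middle probe set in either genotype and did not pass. Whether Mypn belongs in the list was not tested, and the mean without it was not computed. The mean of the 14 was 9.45 to 9.54 in the knockout and 9.77 to 9.90 in wild type. Relative to it Mgam differed by 0.0001 and Alpi by -0.14 (adjusted p = 0.19), Treh by -0.41 and Krt20 by 0.26, these last 2 with non-overlapping groups but an adjusted p of 0.0571 each in the exact permutation test. A difference near 0 here means that Mgam and the mean of the structural genes fell by a like amount on these arrays.

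**Figure D2:**
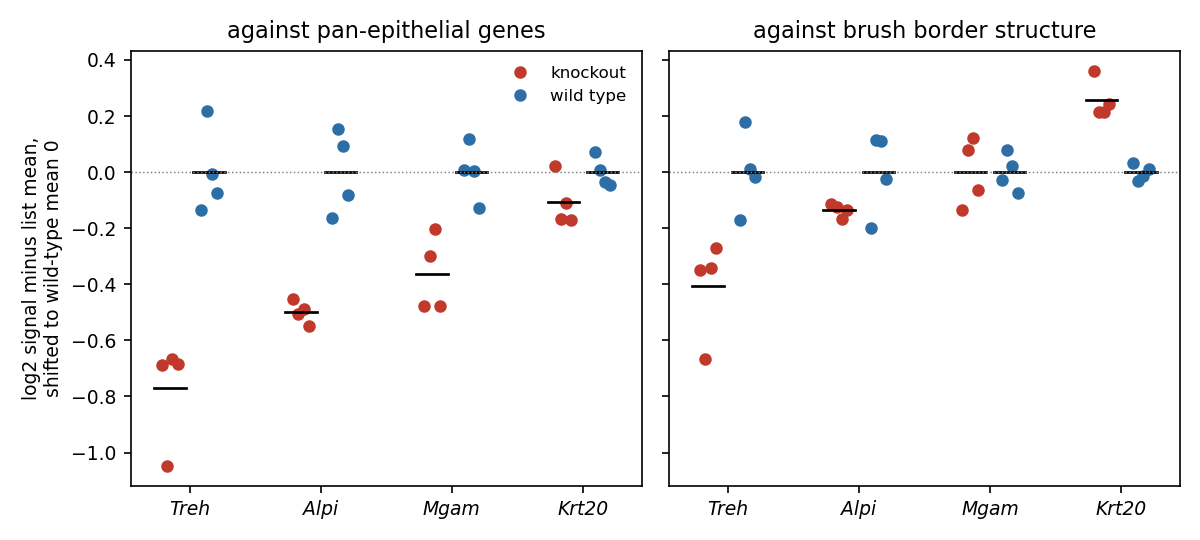
Log2 signal of each member minus the mean of a gene list on the same array (vertical axis, shifted so that the wild-type mean is 0), for knockout (red) and wild-type (blue) arrays, with the mean of each as a black bar. Against pan-epithelial genes (left) Treh, Alpi and Mgam differ by -0.77, -0.50 and -0.36, whereas against brush border structure genes (right) the Mgam groups share 1 mean and Krt20 lies 0.26 higher in the knockout.

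The genes listed for brush border structure fell in most cases. Of 14 measured, 0 rose, 11 fell and 3 did not pass, with a median difference of -0.31, beside 12.9% of all genes lower. The dim gene Mypn was among the 3 that did not pass. The protocadherins Cdhr2 and Cdhr5, which link neighbouring microvilli, fell by 0.94 and 0.70, and the actin bundling proteins Pls1 and Eps8 fell by 0.51 and 0.45. Of 9 brush border peptidases, the enzymes that do for peptides what the disaccharidases do for sugars, 0 rose, 7 fell and 2 did not pass (median -0.38), among them Xpnpep2 (-1.16), Mep1a (-1.28), Anpep (-0.87) and Dpp4 (-0.73). The 2 that did not pass, Folh1 and Tmprss15, named after their values were seen, were dimmer than the middle probe set in either genotype.

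Among the sugar transporters and their relatives, 10 were measured, of which 1 rose, 6 fell and 3 did not pass (median -0.28), beside 12.9% of all genes lower. The list also holds carriers of other substrates, and with quantile normalisation 4 of it were called lower and 2 higher. Slc5a1, the sodium-glucose cotransporter of the brush border, was at 11.15 ± 0.17 in the knockout and 11.63 ± 0.09 in wild type (SD, n = 4 each) and fell by 0.49 (SE 0.08, limma adjusted p = 0.00119). Slc5a11, a sodium-dependent inositol transporter, fell by 0.90 (SE 0.11) and Slc2a9, a urate transporter of the glucose transporter family, by 0.26 (SE 0.07). Slc2a1, the glucose transporter found in most cells, rose by 0.58 (SE 0.09), its signal being 7.51 in the knockout and 6.94 in wild type. Slc2a5, the fructose transporter of the brush border, and Slc2a2, the basolateral exit for glucose and fructose, were looked at after their values were seen. Slc2a5 differed by -0.06 (SE 0.13, adjusted p = 0.777) and Slc2a2 by -0.59 (SE 0.22, adjusted p = 0.0654), and the signal of Slc2a2 was dimmer than the middle probe set in either genotype, so of these 2 and Slc5a1, Slc5a1 alone passed.

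Enzymes that act on the absorbed sugars moved both ways. Of 10 measured genes of fructose and glucose metabolism, 2 rose, 4 fell and 4 did not pass (median -0.14). The shares over all genes were 17.1% higher and 12.9% lower, so the count of those that rose was near its share. Khk, ketohexokinase, the first enzyme of fructose breakdown, fell by 0.47 (SE 0.06), G6pc, the catalytic subunit of glucose-6-phosphatase, fell by 1.04 (SE 0.19) and Fbp1, a fructose bisphosphatase of glucose synthesis, fell by 0.45 (SE 0.11). Hk1, a hexokinase, rose by 0.30 (SE 0.05). With a knockout signal of 4.25, dimmer than the middle probe set, the fall of G6pc may be understated. Of 6 measured glycosidases that work outside the brush border, 1 rose, 2 fell and 3 did not pass (median 0.01). With so few genes these counts cannot be told from the same shares over all genes. Ganc, an alpha-glucosidase of the cell interior, fell by 0.44 (SE 0.09), Glb1, the lysosomal beta-galactosidase, fell by 0.21 (SE 0.07), and Gba2, a non-lysosomal glucosylceramidase, rose by 0.19 (SE 0.05).

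Around Alpi, the list of other phosphatases and surface phosphodiesterases had 7 measured genes, of which 1 rose, 2 fell and 4 did not pass (median -0.07). Over all genes, 17.1% were called higher and 12.9% lower. Nt5e, which turns adenosine monophosphate into adenosine at the cell surface, was at 5.33 ± 0.23 in the knockout and 7.18 ± 0.50 in wild type and fell by 1.85 (SE 0.21, limma adjusted p = 8.14e-05). Enpp3, an ectonucleotide pyrophosphatase, fell by 0.38 (SE 0.08), and Acpp, an acid phosphatase, rose by 0.49 (SE 0.07). Akp3, the duodenal alkaline phosphatase of the mouse and a close relative of Alpi, was named after its values were seen. It lay at 4.31 in the knockout and 4.35 in wild type, dimmer than the middle probe set in each, so these data do not show that it is expressed, and how far either probe set binds the other's transcript was not tested.

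**Figure D3:**
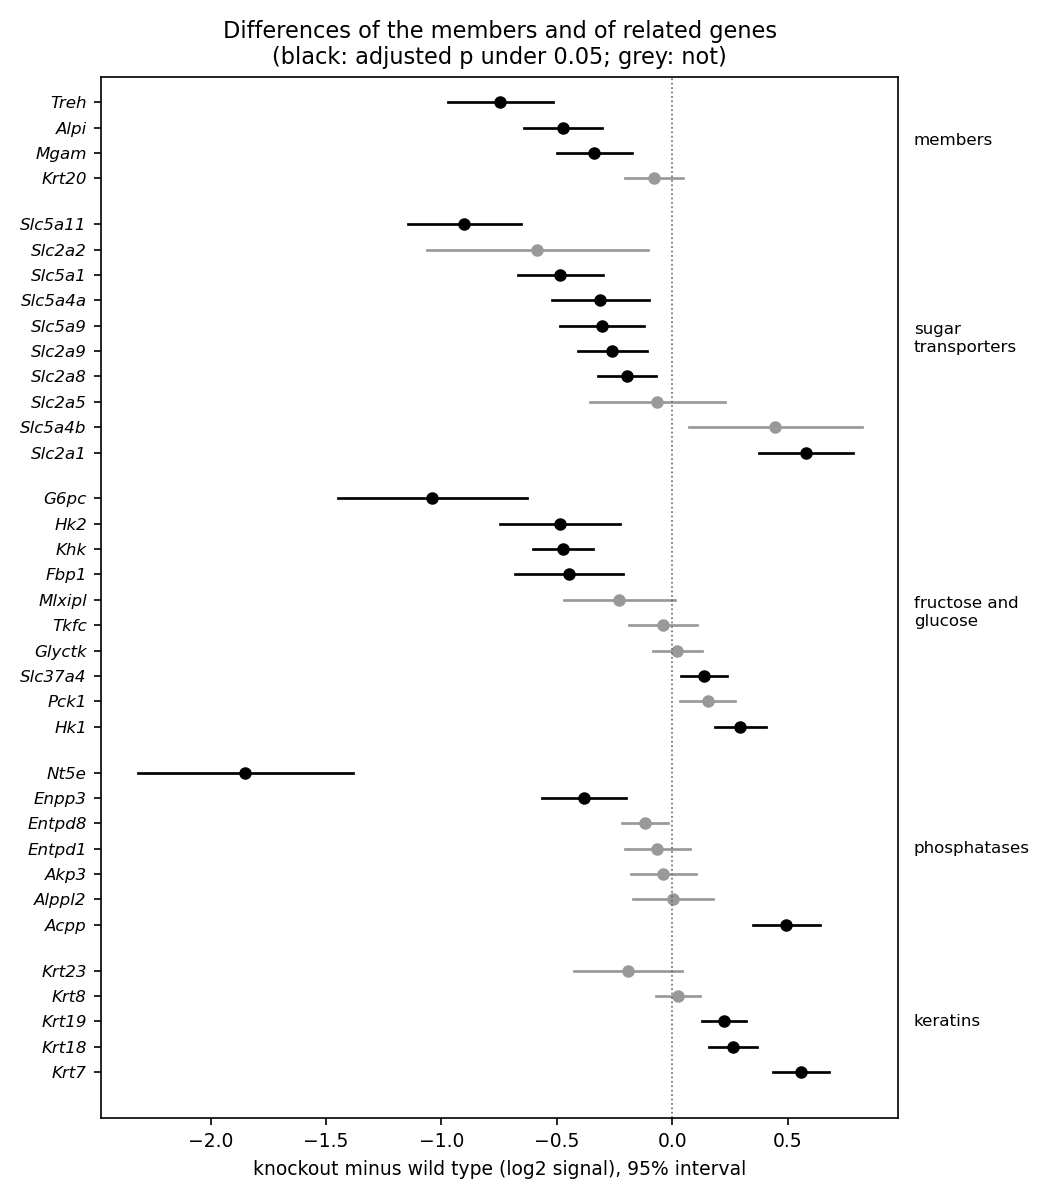
Knockout minus wild type difference in log2 signal with its 95% interval from limma (horizontal axis) for the members and for related genes (rows), in black where the adjusted p was under 0.05 and in grey where it was not. Treh, Alpi and Mgam lie left of 0 at -0.74, -0.47 and -0.34, the Krt20 interval spans 0, and the keratins Krt7, Krt18 and Krt19 lie right of 0.

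Krt20 also stood beside its own family. Of 5 other keratins of simple epithelia, 3 rose, 0 fell and 2 did not pass, with a median of 0.22, where 17.1% of all genes were called higher. Krt7 was at 10.06 ± 0.07 in the knockout and 9.51 ± 0.08 in wild type and rose by 0.56 (SE 0.05, limma adjusted p = 3.22e-05), and Krt18 and Krt19 rose by 0.26 (SE 0.05) and 0.22 (SE 0.04). Keratins pair as type I and type II filament proteins, and Krt7 is of type II whereas Krt18, Krt19 and Krt20 are of type I. The difference of Krt20 from these keratins was not tested.

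Of 14 measured transcription factors known to act on enterocyte genes, 5 fell, 1 rose and 8 missed the threshold (median -0.08). Over all genes, 12.9% were called lower and 17.1% higher. Klf4, a Kruppel-like factor of the differentiated villus, fell by 0.83 (SE 0.07), Prdm1, a repressor that in the mouse governs the switch of the gut from the suckling to the adult set of enzymes, fell by 0.69 (SE 0.09) and Hnf4g, a nuclear receptor of the enterocyte, fell by 0.35 (SE 0.08). Cdx1, a caudal homeobox factor, rose by 0.37 (SE 0.06), and Cdx2, its relative that is known to bind the sucrase-isomaltase promoter, named after its value was seen, differed by -0.14 (SE 0.05, adjusted p = 0.0799).

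The genes whose profiles over the 8 arrays were nearest to each enzyme were found by the root mean square distance between log2 profiles, each centred on its own mean, among the 10930 genes with a mean at or above the median probe set. For Treh they were Pcyt1a, an enzyme of phosphatidylcholine synthesis (distance 0.09), Prdm1 (0.11) and Cdhr5 (0.11). For Alpi they were Pag1, an adaptor protein of lipid rafts (0.03), Stra6l (0.05) and Ugcg, the ceramide glucosyltransferase (0.05). For Mgam they were Aff3 (0.04), Nek3 (0.05) and the signalling adaptor Tollip (0.06). Between members the distance was 0.13 for Alpi and Mgam, 0.18 for Treh and Alpi and 0.27 for Treh and Mgam. The genes named were picked as the nearest of 10930 with the members left out. That they lie nearer than the members follows largely from that choice, and the rank of the members' distances was not examined. The measure takes in the size of the genotype difference, so genes are near one another largely where they differ by a like amount.

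**Figure D4:**
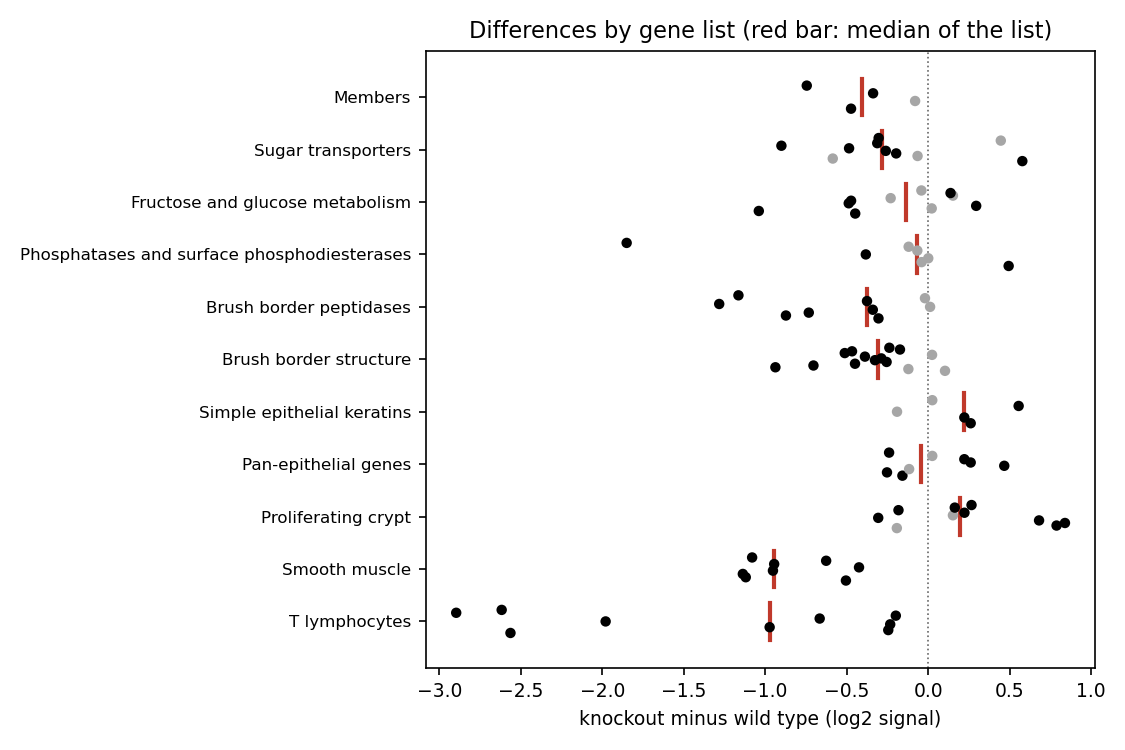
Knockout minus wild type difference in log2 signal (horizontal axis) of each measured gene, by gene list (rows), in black where the limma adjusted p was under 0.05 and in grey where it was not, with the median of the list as a red bar. The medians of the members (-0.41), brush border peptidases (-0.38), brush border structure (-0.31) and sugar transporters (-0.28) lie left of 0, those of keratins (0.22) and proliferating crypt genes (0.19) right of it, and those of smooth muscle (-0.95) and T lymphocyte genes (-0.97) are the lowest of the medians drawn.

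The tissue label and the arrays were checked once for the whole series. Slc51a itself was at 4.60 ± 0.09 in the knockout and 11.36 ± 0.05 in wild type (SD, n = 4 each). The ileal genes Fabp6, Slc10a2, Slc51b and Fgf15 averaged 13.18, 10.97, 11.13 and 7.68 in the knockout, against 13.11, 11.42, 11.48 and 7.13 in wild type. Markers of the proximal intestine were mixed. Npc1l1, Fabp1 and Apoa4 averaged 9.85, 8.47 and 8.20 in the knockout, against 10.56, 7.71 and 8.70 in wild type, well above the middle probe set, and Gata4 and Onecut2, named after their values were seen, were dimmer than it in either genotype. Markers of some other cells of the gut wall also fell, while most of those of fibroblasts did not pass. All 8 measured smooth muscle genes and all 9 T lymphocyte genes fell, 8 of the 9 with each of the other normalisations. The list mean of smooth muscle was 8.09 to 8.35 in the knockout and 8.84 to 9.30 in wild type, and that of T lymphocytes 5.52 to 5.83 in the knockout and 6.94 to 7.11 in wild type. Of 5 B lymphocyte genes 3 fell, of 5 enteric nerve and glia genes 4, of 5 endothelial genes 2 and of 7 fibroblast genes 1, with 1 fibroblast gene higher. Beside these counts, 12.9% of all genes were called lower and 17.1% higher. Of the 5 endothelial genes, 4 had an unadjusted limma p under 0.05. The endothelial list mean was 4.56 to 4.66 in the knockout and 4.74 to 4.91 in wild type. For fibroblasts it was 6.94 to 7.16 in the knockout and 6.89 to 7.23 in wild type. In the nerve and glia list and in the endothelial list, 4 of the 5 genes were dimmer than the middle probe set in either genotype. The part of these cells in the members' differences was not tested. As a sign of RNA quality, the 3' minus 5' difference of the Gapdh control probe sets was 0.06 to 0.21 in the knockout and 0.18 to 0.34 in wild type, and that of the Actb control probe sets 0.42 to 0.47 in the knockout and 0.38 to 0.47 in wild type. The part of RNA quality was likewise not tested.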

How the data were processed

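Ileal RNA (250 ng, amplified and biotin-labelled from the 3' end, per the labels' protocols) from 4 knockout and 4 wild-type mice was run on 1 array each. The values are the authors' deposited log2 signals per probe set, made with RMA as the submitters' processing notes state. Its version, the array strips and the scan dates are not given in the sources used here, so a batch that runs with genotype cannot be told apart from it. RMA compresses low signals, and the number of arrays limits the precision. The labels call the samples biological replicates.

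Of 45037 probe sets other than controls, 28898 had 1 gene symbol in the platform annotation, updated by Entrez identifier to RefSeq (GRCm38.p6) for 28689. The brightest probe set stood for a gene, with no filter. The genotype comparison used limma 3.58.1 (R 4.3.3, 2-sided, Benjamini-Hochberg over 17097 genes), checked on simulated data. Single values used exact permutation tests (scipy 1.17.1), and figures matplotlib 3.10.9. The members and all lists were chosen with earlier results of these data known. The 24 lists held 198 genes, 166 of them measured. Named were all members, Slc51a and 4 ileal genes, up to 4 genes past the threshold from each list with the smallest adjusted p, and the 3 nearest profiles, with cell type lists given as counts. Alternatives were normalisation, probe set choice, a filter on dim genes, the variance prior, array weights, a replicate block, a stricter threshold, leaving out each array and, added after seeing the data, the hybridization controls.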

Additional observations from a re-analysis of the deposited data

Results flagged for a closer look

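In groups of 4 arrays, an array was listed where its gap to the nearest other array was larger, as a share of the range of the group, than Dixon's 95% critical value. Over the 47 genes examined, 94 groups were tested and 6 exceeded it, and chance alone gives about 1 in 20. Treh in knockout replicate 2 was 5.03, below the other knockout arrays at 5.38 to 5.41, and without that array the difference was -0.65. Krt20 in knockout replicate 1 was 12.47, above the others at 12.26 to 12.28, and Pag1 in the same array was 8.03, above 7.94 to 7.95. Cdhr5 in wild type replicate 2 was 10.35, above 10.06 to 10.07. In knockout replicate 4, Cdx1 was 8.75, above 8.51 to 8.55, and Ugcg was 8.17, below 8.32 to 8.33.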

How the results depend on the processing

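Treh, Alpi and Mgam were called lower, and none of the members higher, under all 20 alternatives to the limma fit, and Krt20 passed in 1 of them, cyclic loess normalisation (-0.161, adjusted p = 0.0404), which made 4 members lower. On leaving out 1 array the difference ran from -0.80 to -0.65 for Treh, -0.54 to -0.41 for Alpi, -0.38 to -0.29 for Mgam and -0.13 to -0.06 for Krt20. Across all genes, 2924 were higher and 2210 lower, 2493 to 2853 and 1873 to 2100 on leaving out 1 array, 3316 and 1970 with median centring, 2474 and 2710 with cyclic loess, where more genes were lower than higher, and 5312 and 4417 when every probe set was tested. The lower count was 1446 at a threshold of 0.01 and 1414 without the 3 arrays that were lowest in hybridization controls. The fit with the replicate block called 2945 higher and 2245 lower and changed no member's call. Residuals of same-numbered arrays correlated at 0.218, -0.0511, 0.109 and 0.162, and 3 of the 4 knockout arrays correlated best with their own number. As 1 pair did not deviate together and the labels name no shared litter or day, the arrays were treated as unpaired.

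With 7 arrays the smallest exact permutation p is 0.0571, so no comparison on the same array could pass on leaving out 1. Relative to pan-epithelial genes the differences then ran from -0.816 to -0.679 for Treh, -0.554 to -0.448 for Alpi, -0.418 to -0.324 for Mgam and -0.149 to -0.0826 for Krt20, and without the 3 arrays, where the smallest p is 0.2, they were -0.794 for Treh, -0.428 for Alpi, -0.349 for Mgam and -0.0693 for Krt20. Against brush border structure genes they were -0.407 for Treh, -0.135 for Alpi, 0.0001 for Mgam and 0.258 for Krt20, the last 2 of opposite sign; these genes themselves fell.  For pairs, leaving out 1 array gave -0.734 to -0.593 for Treh minus Krt20, -0.471 to -0.345 for Alpi minus Krt20, -0.313 to -0.178 for Mgam minus Krt20, -0.475 to -0.294 for Treh minus Mgam, -0.318 to -0.182 for Treh minus Alpi and -0.193 to -0.0844 for Alpi minus Mgam. Without the 3 arrays these were -0.725, -0.359, -0.279, -0.446, -0.367 and -0.0794, in that order.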

Other observations

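Genes that are known to be highest at the villus tip in the mouse were lower in the knockout, with 0 of 8 higher, 8 lower and a median of -0.79, beside 12.9% of all genes lower. Ada, adenosine deaminase, changed by -2.74 and the nucleoside transporter Slc28a2 by -4.05, its knockout signal of 4.81 being close to that of the middle probe set. Klf4 and Nt5e fell as given above. This list was chosen with the values of several of its genes known and is no independent evidence. The members and the other lists were likewise chosen with earlier results of these data known, so their counts are description. Of 6 genes of the villus bottom 3 were called, all lower (median -0.15), and 5 with cyclic loess, and the lectin Reg3a fell by 1.44, the chemokine Ccl25 by 0.19 and Lypd8 by 0.16. Of 10 genes of the proliferating crypt, 6 were called higher and 2 lower (median 0.19), and 3 higher and 2 lower with cyclic loess. In the fit of the deposited values, 17.1% of all genes were higher and 12.9% lower. Ccnb2 rose by 0.68, Birc5 by 0.79, Bub1 by 0.84 and Top2a by 0.27, all of them genes of dividing cells, while the stem cell genes Lgr5 and Olfm4, named after their values were seen, fell by 0.31 and 0.18.

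Of 6 goblet cell genes 1 was called higher and 2 lower (median -0.03), and of 3 measured Paneth cell genes 0 passed in limma (median -0.35), with 2 at an unadjusted p under 0.05 and 1 called lower after cyclic loess. Of 6 proximal intestine genes 1 was called higher and 2 lower (median -0.17), Fabp1 by 0.76, Npc1l1 by -0.71 and Apoa4 by -0.50. The groups overlapped for Fabp1 and Apoa4, and the knockout arrays were uneven for Fabp1 (SD 0.56, against 0.03 in wild type). The counts in this paragraph stand beside 17.1% of all genes called higher and 12.9% lower. Of 5 genes of pancreatic acini 1 was called, higher, and 4 of the 5 were dimmer than the middle probe set in either genotype.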
